A study of Mus musculus with 82 samples.

Results

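The cell cycle genes described here were the 3 D-type cyclins (Ccnd1, Ccnd2 and Ccnd3), their partner kinases (Cdk4 and Cdk6), the Cip/Kip inhibitors (Cdkn1a, Cdkn1b and Cdkn1c) and the INK4 inhibitors Cdkn2a and Cdkn2c, 10 genes of the 55376 in each count table. Their rows were taken by gene symbol, and all 10 had a row in every table. The choice of genes was made with earlier results of these data known. The study profiled hematopoietic stem cells (HSC) of male C57BL/6J mice, sorted as Lineage- Sca1+ Kit+ (LSK) CD34- Flk2- CD150+ cells from young mice of 3 to 4 months (YHSC) and old mice of 24 to 26 months (OHSC). RNA was sequenced in 4 YHSC libraries from pooled mice and in 8 OHSC libraries from individual mice, and ATAC-seq, which counts transposase cuts in open chromatin, was analysed here in 4 YHSC libraries and 4 OHSC libraries (replicates 5 to 8). Further old ATAC-seq libraries of the study were not analysed here. ChIP-seq for H3K27ac, a mark of active promoters and enhancers, was used in 2 libraries of each age, and ChIP-seq for the promoter mark H3K4me3 and the Polycomb mark H3K27me3 in 2 young libraries each.

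In 12 further RNA libraries, OHSC from donors of 24 to 26 months carried a lentiviral short hairpin RNA, either a scrambled control or 1 of 2 hairpins (shRNA1, shRNA2) against the distinct 3′ end of a shorter Btaf1 transcript. In each setting there were 2 control, 2 shRNA1 and 2 shRNA2 libraries. The cultured cells were kept for 3.5 days in vitro. The transplanted cells were sorted back from pooled female CD45.1 recipients months later as donor-derived GFP+ LSK CD48- CD150+ cells. Young common myeloid progenitors (CMP), granulocyte-macrophage progenitors (GMP) and megakaryocyte-erythroid progenitors (MEP) gave 2 libraries each. Total reads on genes ran from 20475764 to 24654742 in the HSC libraries by age, from 37292602 to 42737054 in the shRNA libraries and from 33177394 to 36510850 in the progenitors. The counts on ATAC-seq regions ran from 15427933 to 26260337. The sources did not say that the cultured and progenitor libraries of a group came from separate animals or cultures, so their p-values measure only the spread between these libraries. The levels of 12 marker genes of long-term HSCs (LT-HSC) followed the labels, with a sum of 5787 to 5841 CPM (gene counts scaled to a common library total) in YHSC, 5372 to 5905 CPM in OHSC, 2495 to 2728 CPM in cultured, 4063 to 4599 CPM in transplanted and 574.4 to 1221 CPM in progenitor libraries.

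As background, D-type cyclins are made in response to growth signals and activate CDK4 and CDK6, which phosphorylate the retinoblastoma protein and release E2F factors for entry into S phase. INK4 proteins bind CDK4 and CDK6 and keep them from their cyclins, whereas Cip/Kip proteins bind cyclin-CDK complexes and block CDK2 above all. In the bone marrow most HSCs rest outside the cycle, and p57, the product of Cdkn1c, is known for its part in that rest.

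**Figure D1:**
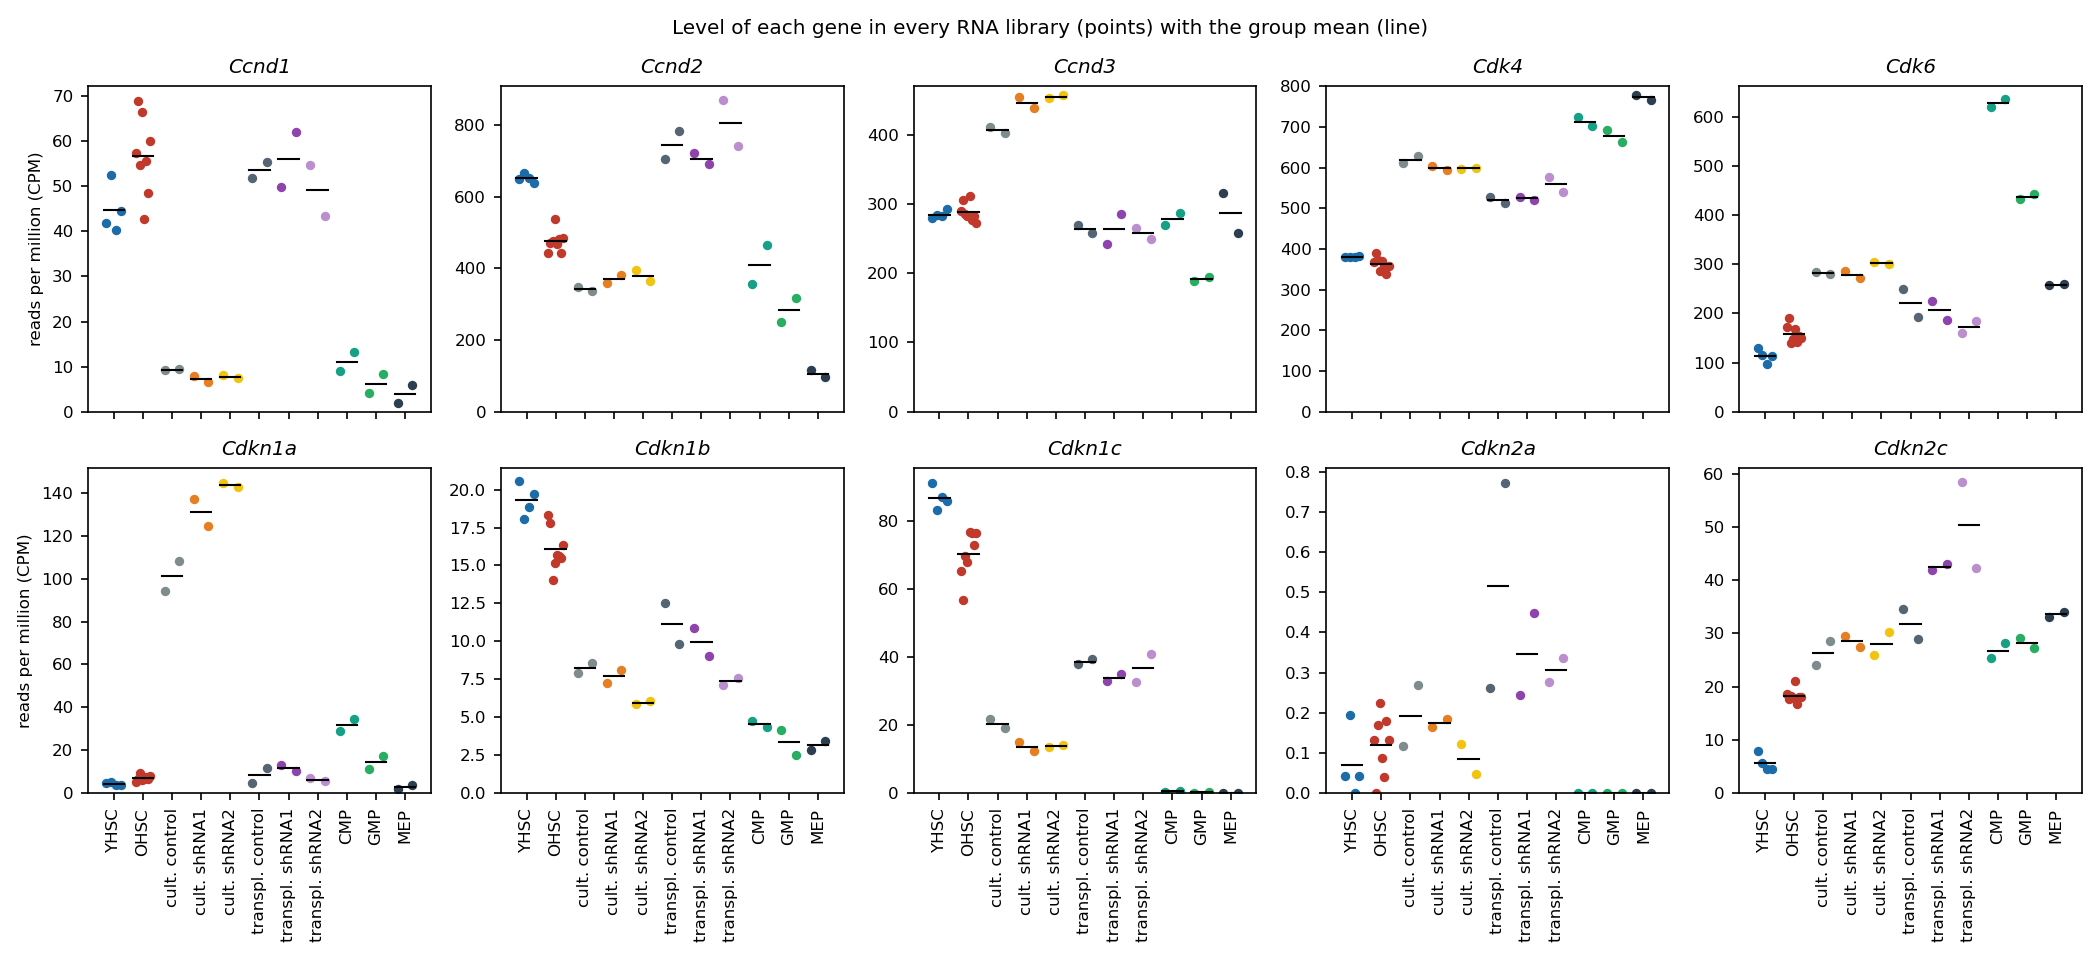
Level in CPM of each of the 10 genes in every RNA library, with a point per library, a line at the group mean and a panel per gene on its own axis from 0. Cdkn1c stood between 56.9 and 91.3 CPM in the freshly sorted HSC libraries and below 1 CPM in all 6 progenitor libraries, whereas Cdk6 was lowest in YHSC and highest in CMP.

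With age, 4 of the 9 genes with enough reads rose and 3 fell at an adjusted p of 0.05 in edgeR's quasi-likelihood test (8 OHSC against 4 YHSC libraries). Over all 21522 genes tested, 12.8% rose and 8.28% fell (2751 and 1781 genes), and the split was 2181 and 2680 genes when libraries were scaled by total reads alone. The INK4 gene Cdkn2c, the Cip/Kip gene Cdkn1a, Cdk6 and Ccnd1 were higher in OHSC, and Ccnd2, Cdkn1c and Cdkn1b were lower. Only Cdkn2c and Cdkn1a passed with a change of more than 1.5-fold, 2 of 9 against 7.56% of all genes. These are bulk libraries, in which fewer cells of a type and less RNA per cell cannot be told apart. Whether reads were counted by strand was not given in the sources used here, so reads of Cdk6, Ccnd1, Ccnd2, Ccnd3, Cdk4, Cdkn1a and Cdkn1c could in part come from genes that overlap them, such as Oraov1 for Ccnd1, Tspan31 for Cdk4 and Bysl for Ccnd3.

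The D-type cyclins moved apart. Ccnd2 (chr6:127125162-127152193, minus strand), the D-type cyclin with the largest count in freshly sorted HSCs, was at 650.1, 666.6, 652.0 and 637.5 CPM in YHSC and had a lowest value of 441.1, a median of 473.0 and a highest value of 536.7 CPM in OHSC. All 8 old libraries lay below all 4 young ones. The fitted log2 change was -0.41 ± 0.04 (SE, adjusted p = 2.88e-08, edgeR), a level 1.33-fold lower in OHSC. Ccnd1 (chr7:144929931-144939925, minus strand) was at 41.9, 52.6, 40.4 and 44.5 CPM in YHSC and at 42.8, 56.5 and 68.9 CPM (lowest, median, highest) in OHSC. The groups overlapped, with 6 of 8 old libraries above every young one. Its log2 change of 0.39 ± 0.12 (adjusted p = 0.0252, edgeR) lost its call without YHSC replicate 1, 3 or 4 (adjusted p = 0.0909, 0.0974 and 0.0738) and when libraries were scaled by total reads alone (0.055). Ccnd3 (chr17:47505051-47599691, plus strand) was at 279.3 to 292.7 CPM in YHSC and 271.9 to 311.3 CPM in OHSC. Its log2 change was 0.07, with a 95% interval from -0.02 to 0.15 and an adjusted p of 0.281 (edgeR).

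Accessibility at the Ccnd2 promoter changed in the same direction as its RNA. The accessible region over the gene start (chr6:127151548-127152890) held 73.8, 78.6, 75.7 and 78.0 CPM in the 4 YHSC ATAC-seq libraries and 60.0, 57.2, 52.8 and 59.9 CPM in the 4 OHSC libraries. No old library reached the lowest young one, and the log2 change was -0.43 ± 0.05 (adjusted p = 1.63e-10, edgeR), under the limit for a called region, an adjusted p under 0.01 with a change of more than 1.5-fold. All 6 tested regions of Ccnd2 had a lower fitted value in OHSC. The 1 called region lay in an intron, 8641 bp from the gene start (chr6:127142960-127143552), with 10.8, 8.56, 9.25 and 9.33 CPM in YHSC and 5.49, 6.10, 6.20 and 5.28 CPM in OHSC. Its log2 change was -0.74 ± 0.12 (adjusted p = 1.44e-06, edgeR), or 1.67-fold lower. The H3K27ac peak near the start of Ccnd2 (chr6:127149251-127150943) had a signal of 4.81 and 4.78 in YHSC and 4.82 and 5.23 in OHSC, a log2 change of 0.06 ± 0.14 (adjusted p = 0.882, limma). Lower promoter accessibility was not particular to Ccnd2. The fitted log2 change was also negative at the promoter regions of Cdk6 (-0.16 ± 0.04) and Cdkn1a (-0.31 ± 0.15), whose RNA rose. At those of Ccnd3 (0.06 ± 0.16) and Cdkn2a (0.02 ± 0.06) it was positive. The sequence of the middle 300 bases of the called Ccnd2 region is given here (GRCm38, plus strand, chr6:127143107-127143406), since it is the only called region of Ccnd2. Capitals mark exact matches on either strand to short motifs of blood transcription factors. The letters searched were AGATAA for GATA factors and TGTGGT for RUNX factors. For ETS factors they were GGAAGT, and for AP-1 they were TGANTCA. The only match was a RUNX motif on the minus strand, and no motif overlapped another in the windows shown.
Ccnd2 intronic region: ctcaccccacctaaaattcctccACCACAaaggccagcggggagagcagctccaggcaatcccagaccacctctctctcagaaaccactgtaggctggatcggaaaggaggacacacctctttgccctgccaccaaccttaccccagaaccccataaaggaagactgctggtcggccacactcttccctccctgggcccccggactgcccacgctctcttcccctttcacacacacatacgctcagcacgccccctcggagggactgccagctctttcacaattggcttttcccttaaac

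Windows of the same length at the centre of the 89242 tested regions with a full window held the RUNX motif in 27.3%, the GATA motif in 14.3%, the ETS motif in 31.9% and the AP-1 motif in 11.8%, and a match of this kind describes letters and not binding. Ccnd3 had 16 accessible regions, all tested, of which 1 in an intron, 37984 bp from the start (chr17:47543035-47543767), was called higher with a log2 change of 0.91 ± 0.21 (adjusted p = 0.000338, edgeR; 1.69 CPM in YHSC and 3.21 CPM in OHSC, n = 4 each). None of the 4 tested regions of Ccnd1 was called, and its promoter region changed by -0.10 ± 0.12 on the log2 scale (adjusted p = 0.583, edgeR).

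Of the kinases, Cdk6 rose and Cdk4 did not pass. Cdk6 (chr5:3341485-3531008, plus strand) was at 128.9, 115.3, 96.1 and 113.8 CPM in YHSC and at 140.5, 151.7 and 191.5 CPM (lowest, median, highest) in OHSC. Every old library was above every young one, and the log2 change was 0.53 ± 0.09 (adjusted p = 0.000855, edgeR; 1.44-fold higher). Cdk4 (chr10:127063534-127067920, plus strand) was at 379.4, 380.6, 380.3 and 383.3 CPM in YHSC and at 339.5, 363.0 and 389.0 CPM (lowest, median, highest) in OHSC. Its log2 change was -0.02, with a 95% interval from -0.10 to 0.06 (adjusted p = 0.774, edgeR). In CPM, before the scaling used in the test, 7 of 8 old libraries lay below every young one and 1 above. To set genes side by side, CPM was divided by the merged length of all annotated exons of a gene, in kb. Unused exons count in this length, so shares between genes are approximate. By this measure Cdk6 made up 6.47% ± 0.73 (SD, n = 4) of the summed Cdk4 and Cdk6 level in YHSC and 9.19% ± 0.72 (SD, n = 8) in OHSC.

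Several regions within Cdk6 were more open in OHSC. Of its 31 accessible regions 22 were tested and 7 were called higher, none lower. Over all members 8 of 63 tested regions were called higher and 2 lower, against 10.1% and 2.9% of all 89245 regions tested. The 7 called regions lay 141795 to 185587 bp from the gene start and 6 of them were within introns. The region with the lowest p (chr5:3497470-3498039) held 4.95, 5.18, 4.53 and 5.10 CPM in YHSC and 12.7, 10.2, 13.0 and 12.2 CPM in OHSC. Its log2 change was 1.27 ± 0.12 (adjusted p = 3.7e-13, edgeR), or 2.41-fold. A neighbouring region (chr5:3494226-3494892) went from 7.04, 7.20, 6.37 and 6.93 CPM to 13.2, 12.5, 15.1 and 12.6 CPM, a log2 change of 0.94 ± 0.11 (adjusted p = 1.46e-10, edgeR). In neither region did the ages overlap. The largest fitted change, 2.04 ± 0.28 (adjusted p = 5.56e-08, edgeR), was at chr5:3508426-3508773, where no young library reached the minimum of 1.5 CPM, so the region entered the test through the old libraries. The same held for chr5:3490429-3490711, where only 1 young library reached it (0.843 to 1.54 CPM in YHSC and 2.60 to 3.62 CPM in OHSC). The promoter region of Cdk6 (chr5:3341072-3344680) moved the other way, from a mean of 119.1 to 107.5 CPM, a log2 change of -0.16 ± 0.04 (adjusted p = 0.000952, edgeR) that was under the 1.5-fold limit. The 15 tested regions that were not called ranged from -0.52 to 0.66.

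The middle 300 bases of the first 2 regions are given as the elements of Cdk6 with the lowest p (GRCm38, plus strand). Capitals mark the same 4 motifs as above, on either strand.
Cdk6 region at chr5:3497605-3497904: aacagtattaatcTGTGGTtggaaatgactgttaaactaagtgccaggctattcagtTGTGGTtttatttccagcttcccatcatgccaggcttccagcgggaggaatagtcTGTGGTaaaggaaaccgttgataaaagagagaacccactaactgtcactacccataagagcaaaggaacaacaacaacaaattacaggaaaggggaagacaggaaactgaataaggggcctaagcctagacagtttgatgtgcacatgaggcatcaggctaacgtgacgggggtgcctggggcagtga
Cdk6 region at chr5:3494410-3494709: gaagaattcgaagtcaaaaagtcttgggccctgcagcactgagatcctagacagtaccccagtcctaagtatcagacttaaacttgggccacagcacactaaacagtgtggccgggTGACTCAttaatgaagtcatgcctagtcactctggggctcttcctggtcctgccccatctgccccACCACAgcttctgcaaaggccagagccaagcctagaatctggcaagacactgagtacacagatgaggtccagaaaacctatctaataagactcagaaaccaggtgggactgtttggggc

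The first window held 3 RUNX motifs and the second a RUNX and an AP-1 motif. Among the 7 called Cdk6 windows 3 held a RUNX motif, 3 an AP-1 motif, 2 a GATA motif and 1 an ETS motif. Among all 22 tested Cdk6 windows the numbers were 10, 8, 2 and 8, beside the shares of all regions given for Ccnd2.

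H3K27ac was higher in OHSC at some of the Cdk6 peaks. Its 9 peaks included 3 past the study's rule for a higher signal, a ratio of the means above 1.5 with every old library at least 1.2 times every young one. They were 3 of the 24 member peaks, against 9.11% of all 39557 peaks higher and 2.27% lower, and no member peak was lower. The peak over the ATAC-seq region with the lowest p (chr5:3497286-3498080) had a signal of 2.04 and 1.24 in YHSC and 3.70 and 3.46 in OHSC. Its log2 change of 0.95 ± 0.19 (adjusted p = 0.00307, limma on log2(signal + 0.5)) was the only one among the members to pass, against 2.94% of all peaks. It did not pass without either old library, and without either young library 2 member peaks passed. A second peak (chr5:3483217-3483977), which also covered a called ATAC-seq region, went from 0.93 and 0.82 to 1.45 and 2.08 (log2 change 0.71 ± 0.22, adjusted p = 0.0715, limma). The third (chr5:3473979-3474764) went from 0.48 and 1.04 to 1.26 and 1.71 (log2 change 0.69 ± 0.24, adjusted p = 0.119, limma), and lay 132494 bp from the start, before the first called ATAC-seq region. A peak among the called regions (chr5:3502249-3502977) had 2.21 and 2.01 in YHSC and 2.25 and 2.60 in OHSC, with a log2 change of 0.16 ± 0.18 (adjusted p = 0.703, limma). The peak at the Cdk6 start had 4.64 and 4.02 in YHSC and 4.26 and 4.79 in OHSC, with a log2 change of 0.06 ± 0.15 (adjusted p = 0.89, limma).

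**Figure D2:**
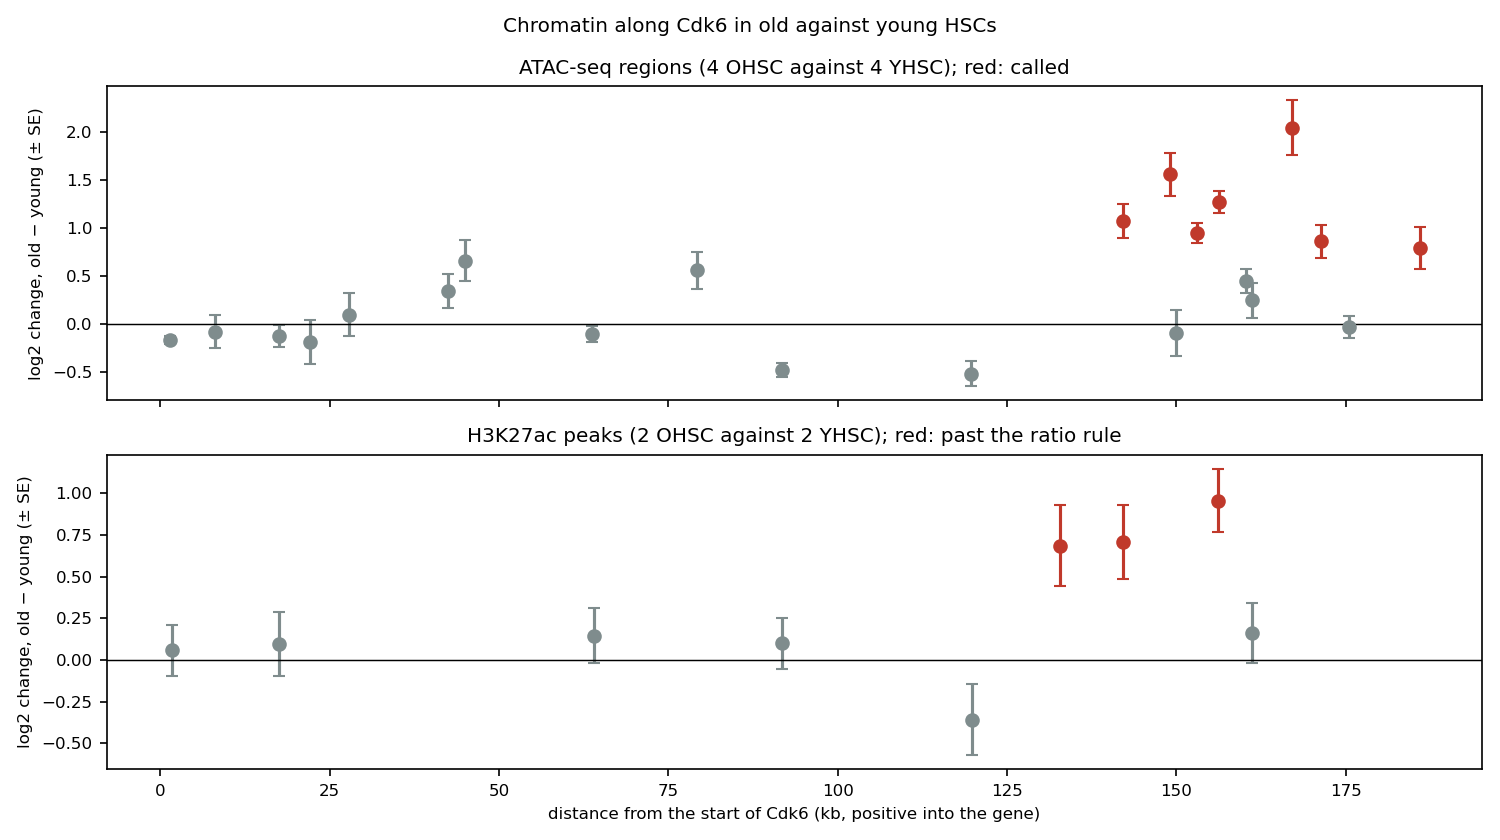
Log2 change of OHSC against YHSC (points, with SE bars) for the tested ATAC-seq regions (top) and the H3K27ac peaks (bottom) of Cdk6, against the distance of each from the gene start in kb. The 7 called regions and the 3 peaks past the ratio rule, in red, lay 132494 bp or more from the start, while the promoter was at -0.16 ± 0.04 in ATAC-seq and 0.06 ± 0.15 in H3K27ac.

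Among the inhibitors Cdkn2c, which encodes p18 INK4C, changed the most with age. It was at 7.87, 5.71, 4.51 and 4.602 CPM in YHSC and at 16.8, 18.1 and 21.02 CPM (lowest, median, highest) in OHSC. The lowest old library was above the highest young one, and the log2 change was 1.73 ± 0.12 (adjusted p = 1.25e-10, edgeR), or 3.33-fold. It held with each library left out in turn, from 1.63 to 1.94. Cdkn2c (chr4:109660876-109667189, minus strand) had 1 accessible region, over its start, with 80.6, 82.1, 81.2 and 84.5 CPM in YHSC and 77.4, 77.0, 83.5 and 77.2 CPM in OHSC. Its log2 change was -0.07 ± 0.04 (adjusted p = 0.182, edgeR). The H3K27ac peak there went from 3.47 and 3.70 to 4.29 and 4.26, a log2 change of 0.23 ± 0.15 (adjusted p = 0.481, limma). In YHSC the gene carried H3K4me3 at its start (22.9 and 23.9) and lay in an H3K27me3 domain of 56999 bp with a signal of 0.94 and 0.95. The promoter is shown because the RNA rose over 3-fold there without a called change in accessibility.
Cdkn2c promoter, chr4:109666707-109667006, minus strand: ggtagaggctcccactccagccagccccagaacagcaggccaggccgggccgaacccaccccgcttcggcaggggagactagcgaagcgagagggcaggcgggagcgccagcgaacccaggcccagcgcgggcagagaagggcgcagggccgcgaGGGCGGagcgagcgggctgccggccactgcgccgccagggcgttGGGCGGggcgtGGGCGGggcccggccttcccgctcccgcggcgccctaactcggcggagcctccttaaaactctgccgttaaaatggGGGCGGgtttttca

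This window comes from RefSeq (GRCm38.p6), from 250 bases before to 50 after the annotated start, as do the other promoters below. Capitals in the promoters mark exact matches on either strand to the GC box (GGGCGG), to 2 forms of the E2F site (TTTGGCGC and TTTCCCGC) and to a TATA motif (TATAAA). The Cdkn2c window held 4 GC boxes and no E2F or TATA match. Of all 32851 RefSeq promoter windows 35.7% held a GC box, 0.514% and 1.07% an E2F site of the first and second form and 13.6% the TATA motif. Promoter windows were matched for 7 of the 10 genes. The set of windows used here held no entry for Ccnd1, Ccnd2 and Cdkn1c, which says nothing about their annotation in RefSeq.

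Cdkn2a, which encodes both p16 INK4A and p19 ARF and is widely used as a marker of senescence, was close to the detection limit. The 4 YHSC libraries held 1, 4, 0 and 1 reads and the 8 OHSC libraries 3, 0, 4, 5, 2, 1, 4 and 3. The mean level was 0.0697 CPM in YHSC and 0.121 CPM in OHSC (exact permutation test, two-sided, p = 0.331), so no difference was detectable at this depth. The gene was under the minimum for the edgeR test, and its counts merge the 2 transcripts. Cdkn2a (chr4:89274471-89294653, minus strand) nevertheless had an open upstream promoter, whose region (chr4:89294307-89295905) was at 26.4 CPM in YHSC and 27.1 CPM in OHSC (n = 4 each), a log2 change of 0.02 ± 0.06 (adjusted p = 0.825, edgeR). In YHSC that promoter carried H3K4me3 at 19.2 and 20.2, and the promoter inside the gene carried it at 3.63 and 2.52. The whole locus lay in an H3K27me3 domain of 80999 bp with a signal of 2.65 and 2.84, the highest H3K27me3 signal of the 4 peaks at the members. Both promoters are shown because the marks set them apart.
Cdkn2a upstream promoter, chr4:89294570-89294869, minus strand: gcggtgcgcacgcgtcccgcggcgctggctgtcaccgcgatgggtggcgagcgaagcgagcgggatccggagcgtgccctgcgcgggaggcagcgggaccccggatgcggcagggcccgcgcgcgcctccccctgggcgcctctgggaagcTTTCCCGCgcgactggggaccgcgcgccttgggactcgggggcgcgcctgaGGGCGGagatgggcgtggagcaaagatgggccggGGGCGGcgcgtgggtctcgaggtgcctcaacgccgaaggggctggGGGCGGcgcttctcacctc
Cdkn2a inner promoter, chr4:89282143-89282442, minus strand: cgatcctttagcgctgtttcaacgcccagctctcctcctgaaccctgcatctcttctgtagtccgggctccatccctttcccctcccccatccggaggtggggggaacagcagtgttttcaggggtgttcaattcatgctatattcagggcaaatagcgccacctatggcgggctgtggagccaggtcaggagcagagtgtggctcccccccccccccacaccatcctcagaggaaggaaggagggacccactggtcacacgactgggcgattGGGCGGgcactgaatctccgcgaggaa

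The upstream window had a GC content of 77.0%, 3 GC boxes and an E2F site of the second form, and the inner window had 60.3%, 1 GC box and no E2F match. The other 2 H3K27me3 peaks were at Cdkn1c (12999 bp, signal 0.41 and 0.42) and at Cdkn1a (1999 bp, signal 0.60 and 0.89). The cyclins, the kinases and Cdkn1b had none. H3K4me3 was found at all 10 genes, in 22 peaks.

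The Cip/Kip genes split. Cdkn1a, a target gene of p53 that encodes p21, was at 4.85, 5.13, 3.82 and 3.94 CPM in YHSC and at 5.31, 6.70 and 9.35 CPM (lowest, median, highest) in OHSC, with no overlap. The log2 change was 0.72 ± 0.14 (adjusted p = 0.000554, edgeR), or 1.65-fold. It had 83 to 221 reads a library. Cdkn1c (chr7:143458339-143461050, minus strand) was at 91.3, 83.5, 87.2 and 86.1 CPM in YHSC and at 56.9, 71.3 and 76.9 CPM in OHSC, again with no overlap, and fell by 0.26 ± 0.07 on the log2 scale (adjusted p = 0.0055, edgeR). Cdkn1b, which encodes p27, was at 20.6, 18.1, 18.9 and 19.7 CPM in YHSC and at 14.05, 15.6 and 18.3 CPM in OHSC. Its log2 change of -0.22 ± 0.08 was at the threshold itself (adjusted p = 0.05, edgeR). The call was lost without YHSC replicate 1, 3 or 4 and without OHSC replicate 3, 4, 5, 6, 7 or 8, with adjusted p between 0.0579 and 0.185, and also without the filter on low counts (0.122) or with spike-in scaling (0.0752).

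At the Cdkn1c start (chr7:143460882-143461590) accessibility went from 16.5 ± 1.61 to 12.5 ± 1.297 CPM (SD, n = 4 each; log2 change -0.41 ± 0.09, adjusted p = 0.000347, edgeR), and a region 3859 bp from the start (chr7:143464909-143465292) was called lower at -0.80 ± 0.19 (adjusted p = 0.000583, edgeR). The Cdkn1b promoter (chr6:134919661-134920798) went from 68.7 ± 1.40 to 58.7 ± 0.89 CPM (log2 change -0.24 ± 0.04, adjusted p = 1.93e-05, edgeR). For Cdkn1a (chr17:29090976-29100727, plus strand), whose RNA rose, the 2 tested regions had lower fitted values. They changed by -0.31 ± 0.15 (chr17:29093544-29093958, adjusted p = 0.0898, edgeR) and by -0.51 ± 0.11 (chr17:29095194-29095953, adjusted p = 0.000322, edgeR), and neither was called. The H3K27ac peak at chr17:29094066-29096013 went from 2.26 and 2.42 to 3.10 and 3.11 (log2 change 0.35 ± 0.17, adjusted p = 0.298, limma). The Cdkn1a promoter window that overlaps the first of these regions is given for this reason.
Cdkn1a promoter, chr17:29093519-29093818, plus strand: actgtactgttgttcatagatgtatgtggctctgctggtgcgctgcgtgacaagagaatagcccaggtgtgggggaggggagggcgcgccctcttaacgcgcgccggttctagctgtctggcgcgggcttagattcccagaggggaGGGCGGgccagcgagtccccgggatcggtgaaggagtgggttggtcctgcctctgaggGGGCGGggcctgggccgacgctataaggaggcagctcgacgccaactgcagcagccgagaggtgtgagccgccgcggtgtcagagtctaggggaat

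It held 2 GC boxes and no E2F or TATA match. Over the 9 tested genes the median log2 change with age was 0.07, beside 0.00 over all genes (0.001 before rounding).

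Other genes of the cell cycle and of the p53 pathway were then counted by list between OHSC and YHSC. The shares to set beside these counts are 12.8% of all genes that rose and 8.28% that fell. Of 12 replication genes driven by E2F, 8 fell and 1 rose, with a median log2 change of -0.30 beside 0.001 over all genes. The MCM helicase subunit Mcm5 fell from 131.9 to 90.9 CPM, and the licensing factors Cdt1 and Cdc6 fell by 0.42 ± 0.08 and 0.41 ± 0.11 on the log2 scale (adjusted p = 0.000522 and 0.00652, edgeR). Of the 10 genes of cyclin E, cyclin A, CDK2 and their activators 5 fell and none rose, among them Cks1b, Skp2, which marks p27 for breakdown, and Ccne2. Of the 10 E2F and DP factors E2f1 and E2f8 fell by 0.62 ± 0.09 and 0.60 ± 0.13 while E2f7 was among 2 that rose. The pocket protein gene Rb1, whose product is the main substrate of CDK4 and CDK6, rose from 92.4 to 136.9 CPM (log2 change 0.61 ± 0.05, adjusted p = 2.65e-09, edgeR), 1 of 4 tested genes of its list. Among the 12 mitosis genes none rose and 1 fell, Cdk1, by 0.70 ± 0.10, which is near the share of all genes that fell. The 8 genes of the DREAM and MYB-MuvB complexes had a median log2 change of -0.02. Of the 12 genes of p53 and its targets 2 fell and none rose, with Bbc3 and Mdm2 at -0.33 ± 0.10 and -0.14 ± 0.05, while Cdkn1a, itself a p53 target, rose.

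Marker genes of other cell types moved with age as well. The summed level of 7 erythroid markers was 172.4 to 234.5 CPM in YHSC and 35.4 to 121.4 CPM in OHSC (5 of 7 lower, 1 higher), that of 8 B cell markers 121.4 to 251.2 and 35.1 to 200.1 CPM (6 of 8 lower), and that of 6 megakaryocyte markers 490.6 to 511.0 and 857.2 to 1188 CPM (3 of 5 tested higher, 1 lower). The 8 myeloid markers summed to 146.7 to 175.9 and 308.0 to 352.2 CPM, but 1 of 6 tested was higher and 2 were lower (median log2 change -0.30), and 4 in YHSC and 6 in OHSC were under 1 CPM. All 4 T cell markers were under 1 CPM at both ages. Their part in the age differences was not tested.

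Knockdown of the short Btaf1 transcript was compared next, first in culture. The gene count of Btaf1 merges the short and the full-length transcripts. It was at 137.0 and 141.1 CPM in the control libraries, 110.0 and 119.2 CPM with shRNA1 and 111.2 and 113.4 CPM with shRNA2, a log2 change of -0.31 ± 0.05 (adjusted p = 0.00151, edgeR, 4 knockdown against 2 control libraries). Without control replicate 2 the adjusted p was 0.0744. Of the 9 tested genes Cdkn1a rose and Cdkn1c fell, against 1.7% and 1.66% of all 19763 genes tested.

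Cdkn1a was at 94.1 and 108.3 CPM in the controls, 137.1 and 124.6 CPM with shRNA1 and 144.6 and 142.8 CPM with shRNA2. All 4 knockdown libraries were above both controls, and the log2 change was 0.42 ± 0.08 (adjusted p = 0.0107, edgeR; 1.34-fold). Cdkn1c was at 21.7 and 19.2 CPM in the controls, 15.0 and 12.3 CPM with shRNA1 and 13.7 and 14.1 CPM with shRNA2. All 4 were below both controls, with a log2 change of -0.59 ± 0.10 (adjusted p = 0.00508, edgeR; 1.505-fold lower). Neither call held without control replicate 1, where the changes were 0.33 (adjusted p = 0.172) and -0.49 (adjusted p = 0.183). By a looser rule, an unadjusted p under 0.05 with a change of more than 1.5-fold, 1 gene passed (Cdkn1c) against 3.42% of all genes, and none without control replicate 1 or shRNA1 replicate 2. The other tested genes ranged from -0.31 (Ccnd1, 9.13 and 9.47 CPM in the controls and 6.66 to 8.13 CPM in the knockdown, adjusted p = 0.25) to 0.13 (Ccnd3, 411.5 and 402.2 against 438.4 to 456.9 CPM, adjusted p = 0.0834, edgeR). Ccnd3 passed without shRNA1 replicate 2 (adjusted p = 0.0469). Cdkn2c was at 24.1 and 28.6 CPM in the controls and 25.9 to 30.3 CPM in the knockdown, with a 95% interval of its log2 change from -0.11 to 0.28.

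In the same cultures 6 of 12 genes of p53 and its targets rose and none fell (median log2 change 0.27, beside 0.004 over all genes). Of all genes 1.7% rose and 1.66% fell. Phlda3, Zmat3 and the apoptosis gene Pmaip1 rose by 1.117 ± 0.111, 1.09 ± 0.19 and 0.99 ± 0.22 on the log2 scale. Of 12 mitosis genes 7 fell and none rose (median -0.23), with Ccnb1 and Plk1 at -0.48 ± 0.05 and -0.39 ± 0.05 (adjusted p = 0.000208 and 0.000421, edgeR). Of the cyclin E, cyclin A and CDK2 list Ccne2, Ccna2 and Cks1b fell, 3 of 10. The pocket protein gene Rbl2 rose from 130.1 to 157.5 CPM. The list counts rest on the same 2 control libraries as the member calls. The sum of the 7 erythroid markers was 123.7 to 126.1 CPM in the controls and 83.7 to 108.4 CPM in the knockdown (1 of 4 tested lower). The 8 myeloid markers, 5 of them under 1 CPM in each group, summed to 171.4 to 180.1 and 202.6 to 254.4 CPM, with a median log2 change of 0.39 over the 3 tested. The 12 LT-HSC markers summed to 2495 to 2529 CPM in the controls and 2649 to 2728 CPM in the knockdown (1 of 12 lower, none higher, median log2 change 0.04). None of these sums overlapped between the groups, which with 2 control libraries can arise by chance. The part of these markers in the knockdown differences was not tested.

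In transplanted cells 0 of the 10 genes passed in edgeR and 0 in DESeq2, and 1 had an unadjusted p under 0.05. At the threshold 0% of all 20350 genes tested passed in edgeR, where 1138 had an unadjusted p under 0.05, while DESeq2 called 29 genes higher and 19 lower. Btaf1 was at 160.6 and 165.5 CPM in the controls, 131.2 and 139.2 CPM with shRNA1 and 119.2 and 117.8 CPM with shRNA2 (log2 change -0.37 ± 0.08, adjusted p = 0.791 in edgeR and 0.0277 in DESeq2). The member with the lowest p was Cdkn2c, at 34.6 and 29.0 CPM in the controls, 42.0 and 43.0 CPM with shRNA1 and 58.5 and 42.4 CPM with shRNA2. All 4 knockdown libraries were above both controls, with a log2 change of 0.54 ± 0.16 (adjusted p = 0.852, edgeR). No member met the looser rule of an unadjusted p under 0.05 and 1.5-fold, against 2.24% of all genes, and 1 did without control replicate 1. Cdkn1a was at 4.82 and 11.7 CPM in the controls and 5.59 to 13.2 CPM in the knockdown, a spread that left an interval of its log2 change from -0.81 to 1.04. The mitosis genes had a median log2 change of 0.32 and the genes of p53 and its targets one of 0.02, beside 0.002 over all genes. The erythroid, myeloid and B cell markers had medians of 1.04, 0.84 and 0.69, and the LT-HSC and megakaryocyte markers both had -0.02. No gene of these lists passed, and their part in the differences was not tested. Cdkn2a had its highest counts of the series here, 11 and 29 reads in the controls and 10 to 17 in the knockdown (log2 change -0.66 ± 0.62, adjusted p = 0.947, edgeR).

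**Figure D3:**
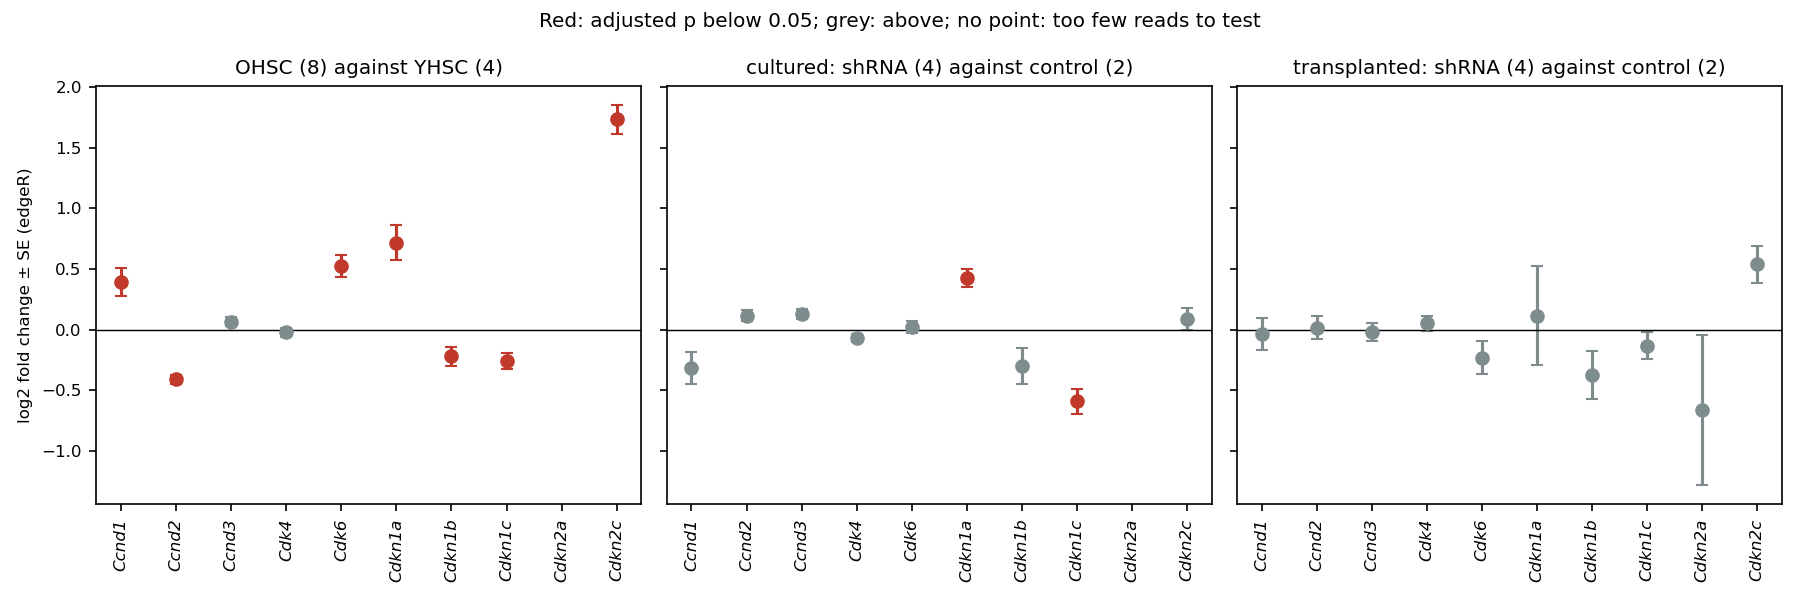
Log2 fold change (points, with SE bars, edgeR) of each gene for OHSC against YHSC, for knockdown against control in culture and for knockdown against control after transplantation. Red points had an adjusted p of 0.05 or less, 7 genes with age, 2 in culture and none after transplantation, and Cdkn2a was not tested in the first and second panel.

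The difference between the 2 knockdown effects was tested by an interaction term over the 12 libraries. In edgeR 0 of the 10 genes passed, as in DESeq2, against 0.21% of all 21443 genes, and 2 had an unadjusted p under 0.05. Before adjustment the lowest p were those of Cdkn1c (log2 difference, cultured minus transplanted, -0.46 ± 0.16, adjusted p = 0.366, edgeR) and Cdkn2c (-0.45 ± 0.19, adjusted p = 0.511, edgeR). The changes of the members in culture and after transplantation are thus not shown to differ. Among the mitosis genes 1 of 12 passed, Bub1 (-0.81 ± 0.14, adjusted p = 0.0383, edgeR), and among the p53 list 1 of 12, Ccng1 (0.47 ± 0.08, adjusted p = 0.0302, edgeR).

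The control libraries of the 2 settings stood far apart. Of the 10 genes 4 were higher and 3 lower in culture, against 24% and 24.3% of all 19518 genes tested (4682 and 4743 genes, and 3416 and 6376 when libraries were scaled by total reads alone, which moved the median of all genes from -0.01 to -0.16). Culture, transplantation and the separate experiments cannot be told apart here. Cdkn1a was at 94.1 and 108.3 CPM in culture and 4.82 and 11.7 CPM after transplantation, a log2 difference of 3.77 ± 0.47 (adjusted p = 0.00973, edgeR; 13.7-fold). The difference was 3.25 without transplanted control replicate 1 and 4.54 without transplanted control replicate 2. The call was lost without either culture control (adjusted p = 0.131 and 0.119), as was that of Cdk6 (285.5 and 281.2 against 249.5 and 192.4 CPM, log2 difference 0.50 ± 0.11, adjusted p = 0.0114, edgeR, and 0.0849 and 0.0694 without a culture control). Ccnd3 and Cdk4 were also higher in culture, by 0.77 ± 0.05 and 0.40 ± 0.04 on the log2 scale (adjusted p = 3.26e-06 and 8.02e-05, edgeR). Ccnd1 was at 9.13 and 9.47 CPM in culture against 51.9 and 55.3 CPM, 5.21-fold lower (log2 difference -2.38 ± 0.10, adjusted p = 3.71e-07, edgeR). Ccnd2 was at 346.2 and 337.6 CPM against 705.2 and 781.9 CPM, 1.97-fold lower (adjusted p = 2.41e-06, edgeR). Cdkn1c was at 21.7 and 19.2 CPM against 37.9 and 39.4 CPM, 1.71-fold lower (adjusted p = 0.000296, edgeR). All 12 replication genes and all 12 mitosis genes were higher in culture, with median log2 differences of 0.83 and 2.07. Of the 12 LT-HSC markers 8 were lower and 1 higher, and 3 of 5 tested megakaryocyte markers were higher, at 1258 to 1294 CPM against 434.7 to 615.3 CPM in sum. The part of these markers in the differences was not tested.

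Young HSCs and their progeny were then set side by side. All 9 tested genes passed between YHSC and CMP, with 4 positive and 5 negative log2 differences (YHSC minus CMP), against 47.8% and 33.2% of all 22360 genes tested. The difference of Ccnd3, among the 5, did not keep its sign or its call when libraries were scaled by total reads alone. Cell type and experiment cannot be told apart in this comparison, and the median log2 difference of all genes was 0.34. Scaling by total reads alone moved that median to 0.71 and the split of calls from 10698 higher and 7429 lower to 13327 and 5191. Cdkn1c was at 83.5 to 91.3 CPM in YHSC and at 0.27 and 0.76 CPM (10 and 27 reads) in CMP. The log2 difference of 7.03 ± 0.17 (adjusted p = 1.12e-14, edgeR) was 130.5-fold, and the gene entered the test through the YHSC libraries. It was 6.47 without CMP replicate 1 and 7.90 without CMP replicate 2. Cdkn1b was at 18.1 to 20.6 against 4.77 and 4.37 CPM (log2 difference 1.71 ± 0.13, adjusted p = 8.8e-10, edgeR). Ccnd1 was at 40.4 to 52.6 against 8.93 and 13.2 CPM (1.65 ± 0.14, adjusted p = 3.17e-07, edgeR). Ccnd2 was at 637.5 to 666.6 against 354.9 and 463.4 CPM (0.30 ± 0.10, adjusted p = 0.0249, edgeR), close to the median of all genes, and lost its call without YHSC replicate 1 or 2 or CMP replicate 1 (adjusted p = 0.0587, 0.0744 and 0.0501).

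Both kinases, Cdkn1a and Cdkn2c were lower in YHSC. Cdk6 was at 96.1 to 128.9 CPM in YHSC and 620.8 and 636.8 CPM in CMP, 7.15-fold lower (log2 difference -2.84 ± 0.11, adjusted p = 4.54e-07, edgeR). Cdk4 was at 379.4 to 383.3 against 724.3 and 702.1 CPM, 2.42-fold lower (adjusted p = 4.36e-16, edgeR). Cdkn1a was at 3.82 to 5.13 against 28.9 and 34.4 CPM, 9.21-fold lower (adjusted p = 4.8e-14, edgeR), and Cdkn2c at 4.51 to 7.87 against 25.4 and 28.1 CPM, 6.07-fold lower (adjusted p = 4.36e-09, edgeR). Ccnd3 had a log2 difference of -0.34 ± 0.04 (adjusted p = 1.48e-06, edgeR) that turned to 0.03 (adjusted p = 0.468) when libraries were scaled by total reads alone, so no direction is given for it. All 12 replication genes, all 12 mitosis genes and all 10 genes of the cyclin E, cyclin A and CDK2 list were lower in YHSC, with median log2 differences of -2.03, -3.64 and -1.82. The myeloid markers summed to 146.7 to 175.9 CPM in YHSC and 16270 to 19620 CPM in CMP, and all 12 LT-HSC markers were higher in YHSC. Of the 8 B cell markers 6 were higher and 1 lower in YHSC, and 6 were under 1 CPM in CMP, while their sum was 121.4 to 251.2 CPM in YHSC and 285.1 to 299.0 CPM in CMP. The part of these lists in the differences was not tested.

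The 3 progenitors were compared with each other. Against CMP, 2 of 9 tested genes were higher in MEP and 4 lower, against 28.9% and 35.6% of all 18234 genes. The median of all genes was -0.07, and -0.18 when libraries were scaled by total reads alone. Cdk6 was at 620.8 and 636.8 CPM in CMP, 432.5 and 444.5 CPM in GMP and 257.4 and 260.0 CPM in MEP, with no overlap. MEP was lower than CMP by a log2 difference of -1.17 ± 0.04 (adjusted p = 3.63e-11, edgeR). Ccnd2 was at 354.9 and 463.4 CPM in CMP, 251.3 and 317.3 CPM in GMP and 115.2 and 95.4 CPM in MEP (MEP against CMP -1.84 ± 0.22, adjusted p = 0.00321, edgeR). Cdkn1a was at 28.9 and 34.4, 11.5 and 17.3, and 1.97 and 3.82 CPM in the same order, 10.1-fold lower in MEP than in CMP (log2 difference -3.33 ± 0.31, adjusted p = 2.03e-05, edgeR). Cdkn1c fell from 10 and 27 reads in CMP to 0 and 4 in MEP (adjusted p = 0.0318, edgeR). It entered the test through the CMP libraries and lost its call without CMP replicate 2 or MEP replicate 1 (adjusted p = 0.268 and 0.178) and in DESeq2 (adjusted p = 0.0699). Without MEP replicate 2 the MEP side held only the library with 0 reads, so the fitted log2 difference of -7.09 depended on the prior count and is no bound. Cdk4 and Cdkn2c were higher in MEP, by 0.23 ± 0.04 and 0.45 ± 0.10 (adjusted p = 0.000264 and 0.00145, edgeR). Cdkn2c was at 33.1 and 34.1 CPM in MEP against 25.4 and 28.1 CPM in CMP. Ccnd1 was at 8.93 and 13.2 CPM in CMP and 1.92 and 5.91 CPM in MEP (log2 difference -1.38 ± 0.66, adjusted p = 0.139, edgeR). Cdkn2a had 0 reads in all 6 progenitor libraries, and a count of 0 allows up to 0.0822 to 0.0904 CPM a library, for counting error only.

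GMP against CMP gave 2 higher and 3 lower genes of 9, against 18.8% and 16%. The direction of small differences depended on the scaling here, since the median of all genes moved from 0.01 to -0.21 when libraries were scaled by total reads alone, and the split of all calls from 3431 higher and 2914 lower to 1498 higher and 5468 lower. Cdk6 and Ccnd3 were lower in GMP by -0.30 ± 0.04 and -0.32 ± 0.08 (adjusted p = 0.000102 and 0.0117, edgeR), with Ccnd3 at 188.9 and 194.5 CPM in GMP and 269.4 and 287.5 CPM in CMP. Cdkn1a was lower by -0.92 ± 0.26 (adjusted p = 0.0296, edgeR). Cdk4 was called higher at 0.14 ± 0.04 (adjusted p = 0.0163, edgeR) although its CPM were lower in both GMP libraries, and its difference turned to -0.07 (adjusted p = 0.177) under that other scaling. Cdkn2c was called higher at 0.29 ± 0.10 (adjusted p = 0.0366, edgeR) and was at 29.1 and 27.3 against 25.4 and 28.1 CPM. Of the 5 calls that of Cdk6 held with each library left out. Ccnd3 and Cdk4 lost theirs without CMP replicate 2 (adjusted p = 0.0874 and 0.148) or GMP replicate 1 (0.0786 and 0.157). Cdkn1a lost its call without CMP replicate 1 or 2 or GMP replicate 1 (0.0609, 0.139 and 0.117), and Cdkn2c without any 1 of the 4 libraries (0.0571 to 0.239).

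MEP against GMP gave 1 higher and 3 lower genes of 9, against 27.7% and 33.7%. When libraries were scaled by total reads alone the number of higher genes was 3, the split of all calls went from 5055 higher and 6138 lower to 5829 and 5586, and the median of all genes from -0.03 to 0.07. Ccnd3 was higher in MEP (315.3 and 258.0 against 188.9 and 194.5 CPM, log2 difference 0.48 ± 0.08, adjusted p = 0.000449, edgeR). Ccnd2, Cdk6 and Cdkn1a were lower by -1.54 ± 0.22, -0.86 ± 0.04 and -2.41 ± 0.31 (adjusted p = 0.00591, 6.7e-10 and 0.000181, edgeR). Without MEP replicate 2 the number of lower genes was 5. All 12 replication genes were higher in MEP than in CMP and than in GMP, with median log2 differences of 0.58 and 0.61. Of the 12 mitosis genes 10 were higher and 2 lower than in CMP, and 4 higher and 5 lower than in GMP. Of the 12 genes of p53 and its targets 8 were higher and 3 lower than in CMP. Against GMP 9 of these were higher and 1 lower, while Cdkn1a was lower in both comparisons. Cyclin E1 (Ccne1) was at 318.8 CPM in MEP, 29.0 CPM in CMP and 27.3 CPM in GMP, and Cdkn2d, a further INK4 gene, at 6.48, 51.5 and 35.2 CPM. Erythroid markers summed to 6498 to 6905 CPM in MEP and myeloid markers to 56840 to 57810 CPM in GMP. The 6 megakaryocyte markers went against the name of MEP, at 24.2 to 25.1 CPM in sum, beside 566.7 to 566.8 CPM in CMP and 36.8 to 70.0 CPM in GMP, with Gp1bb and Ppbp at 0 in MEP. All 5 tested were lower in MEP than in CMP, and against GMP 2 were higher and 1 was lower.

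The make-up of the D-type cyclins differed between cell states when levels were divided by exon length. In YHSC Ccnd2 made up 62.3% ± 0.81 of the summed CPM per kb, Ccnd3 29.2% ± 0.79 and Ccnd1 8.55% ± 0.87 (SD, n = 4). In OHSC the shares were 52.9% ± 1.64, 34.5% ± 2.07 and 12.6% ± 1.55 (SD, n = 8), and the range of the Ccnd2 share, 50.3% to 55.1%, did not reach that of YHSC, 61.3% to 63.0%. In cultured control cells Ccnd3 led with 54.8%, and in transplanted control cells Ccnd2 led with 65.6%. MEP stood at 73.0% Ccnd3, against 41.2% in CMP and 41.1% in GMP. The sum itself was 111.2 CPM per kb in YHSC, 95.4 in OHSC, 84.7 in cultured controls, 120.4 in transplanted controls, 77.6 in CMP, 53.4 in GMP and 44.7 in MEP. These shares carry no test.

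The inhibitor with the largest share also differed between groups, with the same limit on cell state and experiment. Cdkn1c gave 84.8% of the summed inhibitor level per kb in YHSC and 73.4% in OHSC, 52.6% in transplanted controls, 20.1% in cultured controls and 1.22% or less in the progenitor groups. Cdkn2c rose from 4.17% in YHSC to 14.6% in OHSC and was at 49.6% in CMP, 68.2% in GMP and 89.1% in MEP. Cdkn1a led in the cultured controls with 56.5%, against 2.48% in YHSC and 4.23% in OHSC. The sum of the inhibitors was 50.3 CPM per kb in YHSC, 46.9 in OHSC, 50.3 in cultured controls, 36.05 in transplanted controls and 14.04 to 20.1 in the progenitor groups.

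**Figure D4:**
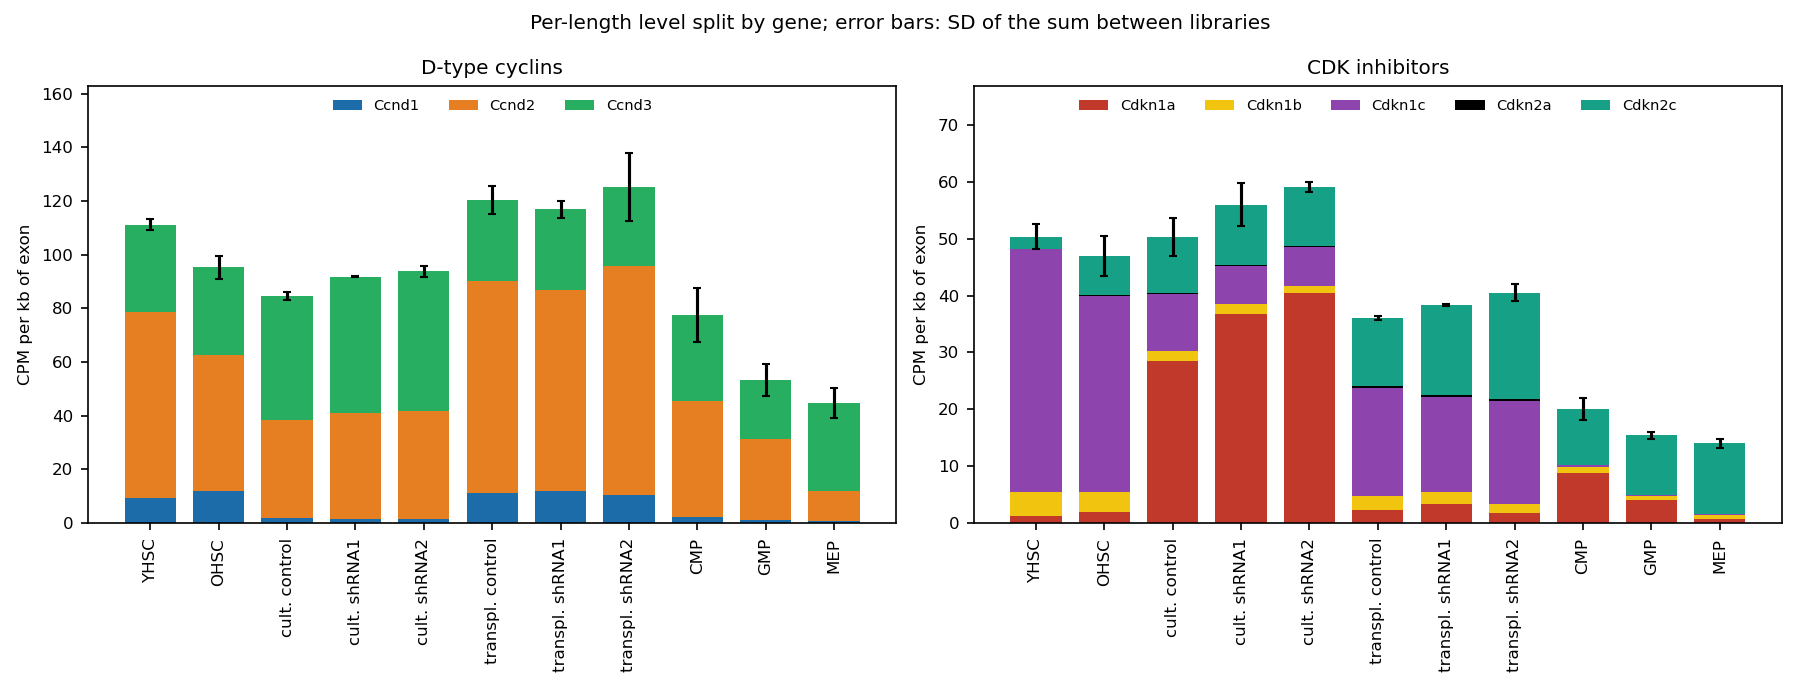
CPM per kb of exon, stacked by gene, for the D-type cyclins (left) and the CDK inhibitors (right) in each group of RNA libraries, with bars at the group mean and error bars for the SD of the sum between libraries. Cdkn1c filled most of the inhibitor bar in YHSC and OHSC, Cdkn1a in culture and Cdkn2c in MEP.

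Across the 11 groups Ccnd1 ran from 3.91 CPM in MEP to 56.8 CPM in OHSC, and 8 of its 10 pairs of neighbours in that order had overlapping libraries. Its clearest step was between YHSC at 44.9 CPM and CMP at 11.04 CPM. Cdk6 ran from 113.5 CPM in YHSC to 628.8 CPM in CMP and had 3 overlapping neighbours of 10, cultured shRNA1 with the cultured controls, transplanted shRNA1 with the transplanted controls and transplanted shRNA2 with OHSC. Cdk4 also had 3, with 362.5 CPM in OHSC as its lowest mean and 772.5 CPM in MEP as its highest. Cdkn1a spanned 2.90 to 143.7 CPM, Ccnd2 105.3 to 805.1 CPM, Cdkn1b 3.16 to 19.3 CPM and Ccnd3 191.7 to 454.9 CPM. Cdkn2c was lowest in YHSC (5.67 CPM), next in OHSC (18.3 CPM) and highest with shRNA2 after transplantation (50.4 CPM), with 7 overlapping pairs in between. The genes closest in pattern were sought for a cyclin, a kinase and an inhibitor by Pearson's r of log2 CPM over the 11 group means, among 12040 genes with at least 10 CPM in a group, as a description with no test since groups share experiments and depth. For Ccnd1 they were Gm15952 (r = 0.991), Gm37305 (0.988) and Taz (0.987), for Cdk6 Mdm1 (0.958), Grk6 (0.951) and Nup210 (0.944), and for Cdkn1c Ecscr (0.997), Chil5 (0.996) and Fstl1 (0.996).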

How the data were processed

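Gene counts per library were deposited by the authors as raw read counts, made with trim galore, STAR and featureCounts on mm10 with GENCODE M22, and the strand setting was not given in the sources used here. ATAC-seq counts per region were deposited by the authors from BWA alignments (duplicates, multi-mapped and blacklisted reads removed) over merged MACS peaks. Histone peaks carried a ChIP-seq signal that the authors normalized for depth before they deposited it. Columns with the authors' own comparisons (fold changes and p-values) and 8 per-sample columns that matched no single labelled sample were not used, nor was the H3K36me3 file.

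RNA and ATAC-seq counts were tested with edgeR 4.0.16 (quasi-likelihood, TMM, filterByExpr for genes, 1.5 CPM in at least 4 libraries for regions) in R 4.3.3, and H3K27ac with limma 3.58.1 on log2(signal + 0.5), all with Benjamini-Hochberg adjustment. A gene passed at an adjusted p of 0.05, a region was called at 0.01 and 1.5-fold, and a peak by a ratio of means of 1.5 with 1.2 for each pair of libraries. Cdkn2a, under the minimum in the age comparison, was tested by an exact permutation test. The steps were run on simulated data with changes larger than most of the members showed. Genes near the detection limit were not given a change, so the runs do not cover small changes or low counts. The ranges of total counts are given in the report, and intervals and floors (3 counts) cover counting error only. CPM used all gene counts without the 92 spike-ins, which took 6.05% to 6.93% of reads in the HSC libraries by age. Regions of a gene ran from 5000 bp before its start to its end. Exon lengths and positions came from GENCODE M21 (54510 genes with a length) and promoters from RefSeq.

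Groups followed the labels. Same-numbered libraries did not deviate together (correlations of -0.226 to 0.0582), so the numbers were not taken to pair them. Alternatives were DESeq2 1.42.0, its size factors, no filter, other pseudocounts and limits, the replicate number as a block, each library left out, each shRNA alone, and, chosen after seeing the data, scaling by total reads or by spike-ins. Named list genes were the up to 3 with the largest absolute log2 change among those past the threshold, and the genes and lists were chosen with earlier results of these data known.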

Additional observations from a re-analysis of the deposited data

Results flagged for a closer look

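In 40 groups of 4 to 8 libraries, each member's highest and lowest values were compared with the rest by Dixon's test, which flags about 1 group in 20 by chance, and 3 stood apart. Ccnd2 was at 536.7 CPM in OHSC RNA replicate 4, above 441.1 to 483.3 CPM in the other 7 (gap over range 0.559, critical value 0.526). Cdkn2c was at 21.02 CPM in OHSC RNA replicate 5, above 16.8 to 18.7 CPM in the other 7 (0.543). The accessible region at the Cdkn2c start was at 83.5 CPM in OHSC ATAC-seq replicate 7, above 77.0 to 77.4 CPM in the other 3 (0.944, critical value 0.829). The calls of Ccnd2 and Cdkn2c with age held without each of the 12 libraries.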

How the results depend on the processing

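For the members, and Btaf1, with an unadjusted p under 0.05 in a comparison, 642 alternative values were computed. Of these 589 kept their direction and side of the threshold, 45 lost the call, 6 gained one and 2 reversed, the latter under scaling by total reads alone: Cdk4 in GMP against CMP (-0.074) and Ccnd3 in YHSC against CMP (0.031). Of 297 counts of members, 33 moved by over 1.5 times. In culture the number of higher genes was 2 without the filter, 3 with shRNA2 alone and 2 with total reads, and the number by the unadjusted rule was 0 with shRNA2 alone and 0 with total reads. After transplantation it was 2 with shRNA2 alone. For GMP against CMP the number of higher genes was 1 in DESeq2, 0 without the filter and 0 with total reads, and for MEP against GMP it was 3 with total reads. With a limit of 2-fold, 4 member regions were called higher and 0 lower in ATAC-seq, and with H3K27ac libraries scaled to the same median signal 1 peak was lower.

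With 1 library left out in turn, the number of genes in culture ran from 0 to 2 higher, 0 to 1 lower and 0 to 1 by the unadjusted rule, which also ran from 0 to 1 after transplantation. GMP against CMP ran from 0 to 2 higher and 1 to 3 lower, MEP against GMP from 3 to 5 lower, and cultured against transplanted controls from 2 to 4 higher. H3K27ac peaks ran from 0 to 1 lower by the ratio rule and from 0 to 2 in limma. Where an arm was left with 1 library, it was assumed to vary like the other groups.

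Over all genes the culture comparison called 336 higher and 329 lower, 642 and 657 without the filter, 805 and 1111 with shRNA1 alone, 663 and 807 with shRNA2 alone, and 75 and 66 without control replicate 1. The interaction called 23 and 22 genes, 116 and 183 in DESeq2, 46 and 48 without the filter and 7 and 6 with the replicate block. The replicate numbers do not pair these libraries. With the replicate block Cdkn1b lost its call with age (-0.20, adjusted p = 0.223, edgeR) and Ccnd1 gained one in MEP against CMP, and the member counts were 4 higher and 2 lower with age, and 1 and 1 in culture. The cause of these shifts was not tested. Depth limits Cdkn2a, with at most 5 reads a library in the age comparison, and Cdkn1c in the progenitors.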
